A study of Mus musculus with 3 samples.

Results

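B lineage cells, the cells that carry the signalling chains Cd79a and Cd79b of the B cell receptor, were examined in mouse knee synovium and infrapatellar fat pad, the soft tissues that line and cushion the joint. They numbered 103 of the 30197 cells that passed the filters in 3 droplet-based single-cell RNA libraries. The first library was a control from wild-type (wt) mice harvested at 2 months of age, with no operation named in the labels. The other libraries came from wt mice that had destabilisation of the medial meniscus (DMM), an operation that produces osteoarthritis, at 2 months of age and were harvested 1 week or 2 months later. Each library pooled tissue from 5 to 10 mice after a trypsin and a collagenase digestion and a sort for live cells, so the 2-month DMM mice were also older than the control mice. A passing cell had at least 500 genes and at most 10% mitochondrial transcripts. A member had at least 4 unique molecular identifiers (UMIs, counted transcripts) of Cd79a and Cd79b together, none of the T cell gene Cd3e and fewer than 5 of the macrophage genes C1qa, C1qb and C1qc. In addition, Col1a2, Col3a1 and Dcn, which fibroblasts make, had to stay below 0.2% of its UMIs.

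B cells are built in bone marrow. Precursors first rearrange the heavy chain gene with the recombinases Rag1 and Rag2 and the enzyme Dntt, which adds bases at the joins, and test the new heavy chain against a surrogate light chain made of Igll1 and Vpreb1 or Vpreb2. Cells that pass divide, rearrange a light chain, take up surface IgM and leave the marrow. As they mature they gain IgD, MHC class II and the homing receptor Ccr7. Plasma cells, the end of the lineage, secrete antibody. Synovium normally holds few B cells, and aggregates of B cells are known best from human inflammatory arthritis.

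With 1 library per group there was no replicate, so no test between groups was possible. Intervals are exact at 95% and reflect counting error alone, so they say nothing of how mice differ. The files held 96782789 to 179561680 UMIs per library and the passing cells had medians of 10871 to 13543 UMIs. Scrublet, a doublet caller, marked 3.87% to 4.70% of the cells of each library, among them 0, 2 and 0 members, and the calls were kept because the rule has no doublet step. Between 21 and 30 passing cell barcodes were shared by each pair of libraries, and none of them was a member in both.

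The control library held 2 members among 8099 cells, or 0.0247% (0.00299 to 0.0892). The 1-week library held 80 among 12316 cells, or 0.650% (0.515 to 0.808), and the 2-month library 21 among 9782, or 0.215% (0.133 to 0.328). The 1-week share was the highest and the control share the lowest, and none of the 3 intervals overlapped with all passing cells as the denominator. The share at 1 week was 26.3 times (7.05 to 221) that of the control and 3.03 times (1.85 to 5.15) that at 2 months. The share at 2 months was 8.69 times (2.13 to 76.5) that of the control. Since the control rested on 2 cells, these ratios moved widely with the settings. The 1-week ratio to the control was 7.41 when every cell was thinned to 2000 UMIs and 1 Cd79 UMI was enough, and 49.3 when a UMI of each of Cd79a and Cd79b was asked for. With cells positive for the leukocyte gene Ptprc as the denominator it was 7.74 (2.04 to 65.6), and the 2-month ratio to the control was 4.07 (0.945 to 36.6). The intervals of neighbouring shares then overlapped, at 0.0216 to 0.642 for the control, 0.406 to 1.19 for 2 months and 1.03 to 1.81 for 1 week. Members of the operated libraries were mostly shallow cells. Their median was 3136 UMIs at 1 week and 4417 at 2 months, against 12960 and 13549 in all other cells. The deepest members there had 23160 and 49921 UMIs, and the 2 control members had 2859 and 33433. A minimum of 4 UMIs is harder to reach in a shallow cell.

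**Figure D1:**
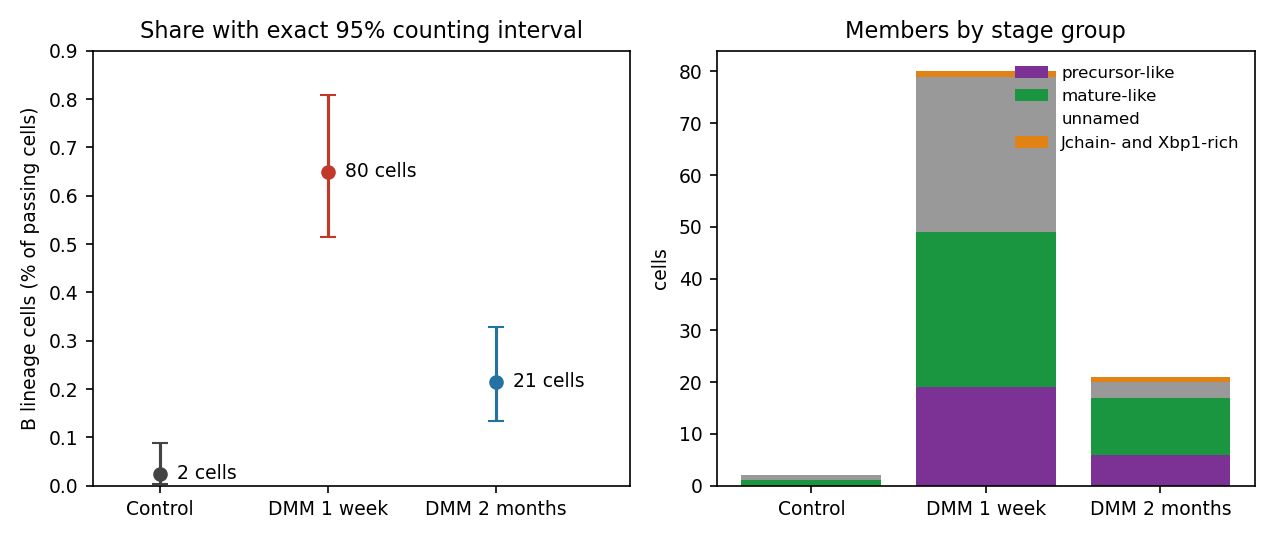
The left panel shows the share of passing cells that were B lineage members in each library, in percent, with exact 95% counting intervals, and the right panel stacks the number of members by stage group. The 1-week library held 80 members, the 2-month library 21 and the control 2, and precursor-like cells were present in both operated libraries.

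The label was checked on genes that the rule did not use. Pax5, the factor that holds cells in the lineage, was found in 43 of 80 members at 1 week and 12 of 21 at 2 months, against 42 of 12236 and 4 of 9761 other cells. The surface protein gene Ms4a1 was found in 41 and 12 members against 38 and 7 other cells. Ebf1, a transcription factor that sets up the B lineage, was present in 78 and 19 members, but also in 8408 and 7719 other cells, so a UMI of it does not mark a B cell here. The heavy chain Ighm or the light chain Igkc was seen in all 80 members at 1 week and in 20 of 21 at 2 months. One of the 2 control members had 2859 UMIs, 12 of them from Cd79a and Cd79b, with 9 of Ebf1, 10 of Ighm and 31 of Igkc. The other had 33433 UMIs, no Cd79a, 4 of Cd79b, 7 of Ighm and no Ebf1, Pax5, Ms4a1 or Igkc, and it carried 532 UMIs of the granulocyte precursor genes Mpo, Elane, Prtn3, Ctsg and Ms4a3. The control thus held 1 cell with several B lineage markers, and no gene of the members is compared between the control and the operated libraries.

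Apart from fibroblast genes, genes of other cell types were sparse in most members and high in a few. The fibroblast list had a median of 4 UMIs per member at 1 week and 8 at 2 months. It reached at least 10 UMIs in 4 of 80 and 7 of 21 members. In CPM it stood at 836 and 699 in members against 19260 and 38440 in other cells. At 1 week, 2 members had over 1000 UMIs of the neutrophil list, led by S100a8 and S100a9, while the median member had 1 and Csf3r was at 0. Of the macrophage and monocyte list 7 of 8 genes had UMIs in 1-week members, with a median of 1 UMI per cell and a highest cell of 316, and Adgre1 was at 0. The endothelial list reached 31 UMIs in 1 cell at 1 week and 36 in 1 cell at 2 months, with a median of 0 in both. T and NK cell genes reached at most 2 UMIs per cell at 1 week and 4 at 2 months, with Cd3g, Trbc2, Trac and Cd8a at 0. Siglech, which marks plasmacytoid dendritic cells, was at 0 in all members. In all, 5 members at 1 week, 1 at 2 months and 1 in the control had at least 10 UMIs of a neutrophil, macrophage, granulocyte precursor, endothelial or T cell set. Leaving them out gave shares of 0.609%, 0.205% and 0.0123%.

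The limits of the rule mattered mostly for the collagen limit at 1 week. There 135 passing cells had at least 4 Cd79a and Cd79b UMIs, and 53 of them were kept out by the collagen limit and 2 by the C1q limit. The 53 cells had a median of 0.335% collagen-set UMIs and a median depth of 2581 UMIs. In the 2-month library 25 cells reached the Cd79 minimum, and 3 were kept out by the collagen limit and 1 by the C1q limit. Just under the Cd79 minimum, with 3 UMIs and all other limits met, were 3 cells at 1 week, 1 at 2 months and none in the control, and members with exactly 4 UMIs numbered 4, 0 and 1. With the collagen limit at 1%, a value set after these counts were seen, the shares were 0.983% at 1 week and 0.225% at 2 months. Free RNA was gauged in cells with at least 2% collagen-set UMIs, which should lack Cd79a and Cd79b. At a median depth of 16263 UMIs, 1.73% of 5712 such cells had 1 or more Cd79 UMIs at 1 week (1.41 to 2.11) and 10 cells had 4 or more. In the 2-month library these were 0.835% of 3592 cells and 2 cells, and in the control 0.563% of 2843 cells and no cell. Igkc was found in 0.211%, 3.12% and 6.49% of these cells in the control, 1-week and 2-month libraries, so single Igkc UMIs in members are not read as expression.

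The genes that set members apart from all other cells, ranked by the mean log2 ratio over the libraries, are given as a description, since the same cells were chosen by their transcripts. In the control, 33433 of the 36292 member UMIs came from the cell with granulocyte precursor genes. The control part of the ranking thus rested mostly on that cell. Igkc led, at 16740 CPM, UMIs scaled to a common total, in members against 6.05 in other cells at 1 week, but 5723 of its 6973 UMIs came from 1 cell rich in Jchain. Without that cell it stood at 3166 CPM, and at 2636 without the like cell at 2 months. Next came Igha, Ighm, the membrane protein gene Ly6d, Ptprcap, which encodes a partner of CD45, and Jchain, which joins antibody units, and then Vpreb3, Plac8 and Ms4a1. Igha and Jchain came almost wholly from the same cell of each operated library. Plac8 had 99 UMIs in 1 control member and was not among the 20 leading genes of the operated libraries. Ly6d stood at 744 CPM at 1 week and 587 at 2 months against 2.79 and 1.04 in other cells, and Vpreb3, a chaperone-like relative of the surrogate light chain, at 1285 and 1112 against 1.02 and 0.110. The ranking over the operated libraries alone shared 15 of its 20 leading genes with that over all 3, and Plac8, Hmgb2, Pclaf, Stmn1 and Cd69 were in the latter only.

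Members were then grouped by raw UMIs. Precursor-like cells had at least 3 UMIs of Igll1, Vpreb1, Vpreb2, Dntt, Rag1 and Rag2. Mature-like cells had fewer than that and at least 3 UMIs of Ighd, Fcer2a, Cr2 and Ms4a1, the genes of IgD, CD23, CD21 and CD20. Cells with at least 10 Jchain and 3 Xbp1 UMIs were set aside first, and the rest stayed unnamed. At 1 week 19 of 80 members were precursor-like, 23.8% (14.95 to 34.6), 30 were mature-like, 37.5% (26.9 to 49.0), 30 were unnamed and 1 was rich in Jchain and Xbp1. At 2 months 6 of 21 were precursor-like, 28.6% (11.3 to 52.2), 11 were mature-like, 52.4% (29.8 to 74.3), 3 were unnamed and 1 was rich in Jchain and Xbp1. The intervals of the 2 libraries overlapped for both shares. In the control the cell with B lineage markers was mature-like, and no control member was precursor-like. The mature-like share at 1 week was 50% with members thinned to 2000 UMIs and 1 UMI of a set enough, and 21.3% with a minimum of 5 UMIs of the mature set, so this share is set by depth and by the minimum.

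**Figure D2:**
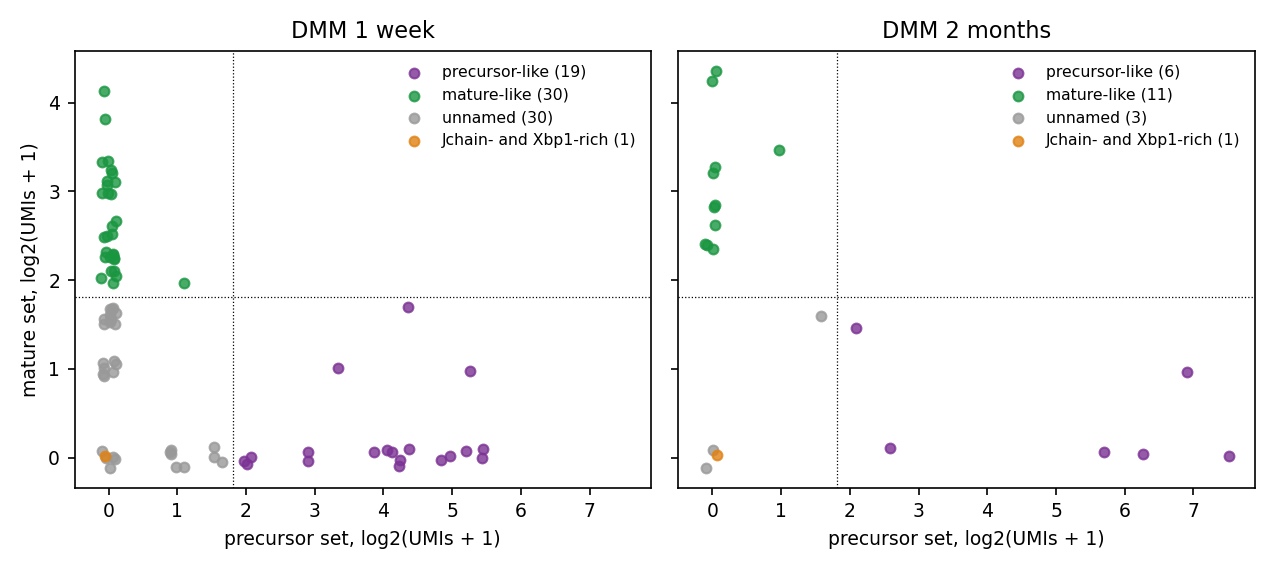
Each point is 1 member of the 1-week (left) or 2-month (right) library, placed by its UMIs of the precursor set (horizontal) and of the mature set (vertical), both as log2(UMIs + 1) with a small random shift, and dotted lines mark the minimum of 3 UMIs. Precursor-like cells lie along the horizontal axis, up to 42 UMIs at 1 week and 180 at 2 months, and mature-like cells along the vertical axis.

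Precursor-like cells were the deeper ones. Their UMIs per cell ranged from 1632 through a median of 10207 to 23160 at 1 week and from 3579 through 24883 to 49921 at 2 months. Mature-like cells had medians of 2947 and 4361 UMIs, which was 22.8% and 32.2% of their libraries' medians. Ms4a1, which was among the genes that chose these shallow cells, was among their 10 leading genes in both libraries, so the name mature-like describes the rule. The 3 deepest precursor-like cells held 32.5% of that group's UMIs at 1 week and 79.8% at 2 months, so sums at 2 months describe mostly 3 cells.

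The surrogate light chain genes are described first, as the values that chose these cells. At 1 week the precursor set summed to a lowest value of 3, a median of 18 and a highest value of 42 UMIs per precursor-like cell. At 2 months these were 3, 64 and 180. Igll1 stood at 525 CPM over precursor-like cells at 1 week and 851 at 2 months, and Vpreb1 at 977 and 974. Mature-like cells had no UMI of Igll1, Vpreb1, Vpreb2, Dntt or Rag1 in either library. Igll1 and Vpreb1, whose proteins pair in the surrogate light chain, were found in the same cells. At 1 week 17 of 80 members had Igll1, 18 had Vpreb1 and 16 had both. At 2 months 4 of 21 had each, and they were the same 4 cells. Deeper cells show both genes more readily, and the part of depth in this overlap was not tested. A few precursor-like cells were carried by Rag1 instead. One 1-week cell with 1632 UMIs and one 2-month cell with 3579 UMIs had 3 and 5 of Rag1 and none of Igll1, Vpreb1 or Dntt.

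The promoters of Igll1 and Vpreb1 are shown because these were the genes that set the precursor-like cells apart and were found together in single cells. Both genes lie on the minus strand of chromosome 16 with start sites 5270 bases apart. The windows below are those of RefSeq on GRCm38.p6 from 250 bases before to 50 bases after the start site, written 5′ to 3′ along the gene, at chr16:16863936-16864235 for Igll1 and chr16:16869206-16869505 for Vpreb1. Capitals mark the letters CAGGTG or, read on the other strand, CACCTG, an E box of the kind that the B lineage factor Tcf3 is known to bind.
Igll1: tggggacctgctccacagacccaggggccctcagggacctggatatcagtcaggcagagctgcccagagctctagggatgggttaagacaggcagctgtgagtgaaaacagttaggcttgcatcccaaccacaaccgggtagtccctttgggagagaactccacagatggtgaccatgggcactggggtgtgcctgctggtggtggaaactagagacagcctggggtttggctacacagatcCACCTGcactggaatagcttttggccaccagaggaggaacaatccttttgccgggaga
Vpreb1: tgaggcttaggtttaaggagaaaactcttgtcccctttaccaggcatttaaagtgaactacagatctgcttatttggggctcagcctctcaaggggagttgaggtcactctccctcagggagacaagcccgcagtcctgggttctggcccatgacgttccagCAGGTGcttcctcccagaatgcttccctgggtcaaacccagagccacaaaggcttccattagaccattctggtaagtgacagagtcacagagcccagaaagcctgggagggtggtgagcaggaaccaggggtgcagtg
The match began 8 bases before the start site in Igll1 and 88 bases before it in Vpreb1. It was the only match in each window, and 6640 of 32851 promoter windows of this length, 20.21%, held at least 1 on either strand. Tcf3 itself was at 234 CPM in precursor-like cells and 122 in mature-like cells at 1 week, and at 191 and 61.6 at 2 months.

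Dntt marked a subset of the precursor-like cells. It was present in 8 members at 1 week and 2 at 2 months, all of them precursor-like, with 1 to 14 UMIs per cell at 1 week and with 25 and 69 at 2 months. None of these 10 cells had a UMI of the kappa light chain Igkc, although they reached 13824 UMIs at 1 week and 49921 at 2 months. Of the other precursor-like cells, 8 of 11 at 1 week and 2 of 4 at 2 months had at least 2 UMIs of Igkc, up to 46, and 1 more cell in each library had a single UMI. Ighm, the heavy chain of IgM, was found in all 19 and all 6 precursor-like cells. Dntt was one of the genes that chose the cells, whereas Igkc and Ighm were not.

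Genes of early B cells outside the chosen set were mostly higher in precursor-like than in mature-like cells at 1 week and split both ways at 2 months. Sox4, a transcription factor of early lymphocytes, stood at 426 CPM (339 to 529) against 10.2 (0.258 to 56.8) at 1 week and at 314 (234 to 413) against 123 (45.2 to 268) at 2 months. Lef1, a Wnt pathway factor of pro-B cells, stood at 234 against 51.0 CPM and at 419 against 20.5. The scaffold gene Akap12 was 5.81 times (2.35 to 18.6) and 5.10 times (1.90 to 19.3) as high. Il7r, the receptor through which mouse precursors receive the growth signal interleukin 7, was found in 15 of 19 precursor-like cells at 1 week, at 260 CPM against 10.2. At 2 months it was found in all 6, at 123 CPM against 144, where the mature-like value came from 7 UMIs of 1 cell. Cd93 was at 244 against 30.6 CPM at 1 week and 92.5 against 41.1 at 2 months, although 23 of its 47 precursor-like UMIs at 1 week came from a single cell, which also carried endothelial genes. Vpreb3 was higher at 1 week, 2.59 times (1.96 to 3.47), and at 2 months 1.30 times (0.940 to 1.82). Kit, the receptor of stem cell factor, had 2 UMIs in the precursor-like cells of each library, and Flt3 had 1 and 0. Of the 14 genes of the precursor list that did not choose the cells, 9 had at least 20 UMIs at 1 week, and 6 of these were at least 2-fold higher and 1 lower, with a median log2 ratio of 2.20. Over all 2298 genes with 20 UMIs, 23.8% were at least 2-fold higher and 10.7% at least 2-fold lower, with a median of 0.26. At 2 months 3 of 8 were higher and 3 lower, with a median of 0.08 beside 0.47 over 1627 genes, of which 35.6% were higher and 14.1% lower. On the scale of that median the 2-month value of the precursor list lies below zero. The genes lower in precursor-like cells were Irf4 at 1 week and Bach2, Foxo1 and Irf4 at 2 months. Bach2 stood at 307 against 296 CPM at 1 week. At 2 months it stood at 185 against 534 CPM, 0.346 times (0.198 to 0.610) as high.

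Precursor-like cells in both libraries carried cell-cycle genes. Mki67 and Top2a, which are made by dividing cells, summed to at least 5 UMIs in 9 of 19 precursor-like cells at 1 week and 5 of 6 at 2 months, against 1 of 30 and 0 of 11 mature-like cells. With every cell thinned to 2000 UMIs, at least 1 UMI of these genes was left in 9 of 18 and 4 of 6 precursor-like cells. Among mature-like cells it was left in 4 of 27 and 0 of 11. The stages were still those named at full depth, so the part of depth in the grouping itself was not tested. Mki67 stood at 629 CPM (522 to 751) in precursor-like and 40.8 (11.1 to 104) in mature-like cells at 1 week, and at 728 (602 to 871) from 118 UMIs against no UMI at 2 months. The deepest counts came from 1 cell at 1 week with 79 UMIs of Mki67 and 80 of Top2a. Stmn1, which regulates microtubules, was 5.08 times (3.44 to 7.78) as high at 1 week, and Hmgb2, a chromatin protein gene of dividing cells, 6.71 times (4.99 to 9.23). At 2 months Hmgb2 was 13.6 times (8.34 to 24.0) as high. In the proliferation list 17 of 17 genes with at least 20 UMIs were at least 2-fold higher in precursor-like cells at 1 week and 15 of 16 at 2 months. Over all genes with 20 UMIs, 23.8% and 35.6% were higher. The median log2 ratios of the list were 2.35 and 2.14 beside 0.26 and 0.47 over all genes. At 1 week the dividing cells included 2 of the 8 with Dntt, and at 2 months both cells with Dntt.

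MHC class II, with which mature B cells present antigen to T cells, had the lowest median ratio of the lists in both libraries. Cd74, the chain that escorts class II molecules, had 12 UMIs over 19 precursor-like cells at 1 week, 62.3 CPM (32.2 to 109), and 1187 UMIs over 30 mature-like cells, 12100 CPM (11420 to 12810). At 2 months it had 2 UMIs over 6 cells, 12.3 CPM (1.49 to 44.5), against 512 over 11 cells, 10510 CPM (9623 to 11470). Per cell, Cd74 and H2-Aa together ranged from 0 through a median of 1 to 9 UMIs in precursor-like cells at 1 week, and from 2 through 52.5 to 90 in mature-like cells. At 2 months they ranged from 0 through 0 to 5 and from 8 through 65 to 123. The groups did not overlap at 2 months and overlapped by a single low mature-like cell at 1 week, although the precursor-like cells were the deeper ones. H2-Eb1, a class II beta chain, was in 2 of 19 against 26 of 30 cells and in 1 of 6 against 9 of 11. H2-Ab1, the beta chain partner of H2-Aa, stood at 166 against 2487 CPM and at 86.3 against 2649. All 7 genes of the class II list with 20 UMIs were at least 2-fold lower in precursor-like cells at 1 week and all 6 at 2 months. Over all genes with 20 UMIs, 10.7% and 14.1% were lower. The median log2 ratios of the list were -4.03 and -5.60 beside 0.26 and 0.47 over all genes. The single UMIs of class II genes in precursor-like cells were not told apart from free RNA.

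**Figure D3:**
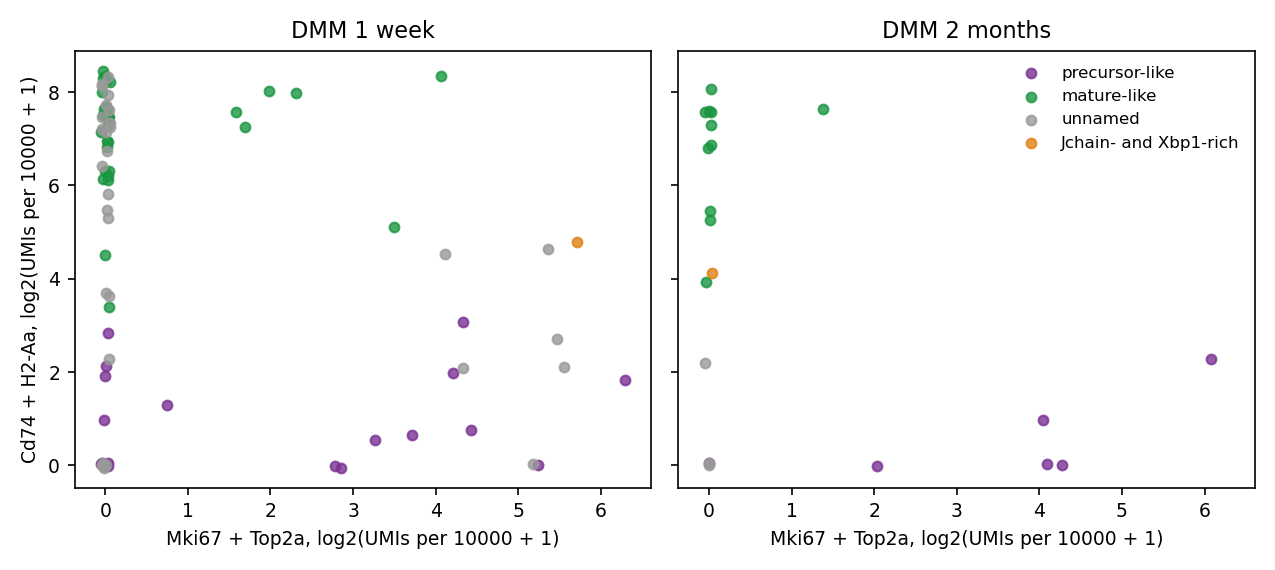
Each point is 1 member of the 1-week (left) or 2-month (right) library, placed by Mki67 and Top2a (horizontal) and by Cd74 and H2-Aa (vertical), each as log2 of UMIs per 10000 plus 1 with a small random shift. Mature-like cells sit high on the left and precursor-like cells low, 9 of 19 and 5 of 6 of them with at least 5 UMIs of the cycle genes.

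Light chain and heavy chain RNA was higher in mature-like cells. Igkc stood at 639 CPM (531 to 762) in precursor-like cells and 7482 (6950 to 8043) in mature-like cells at 1 week, and at 173 (115 to 250) and 10950 (10040 to 11910) at 2 months. It was found in 28 of 30 and 11 of 11 mature-like cells, and all 30 at 1 week had a kappa or lambda light chain. Ighm was 2.03 times (1.70 to 2.43) as high in mature-like cells at 1 week and 3.17 times (2.55 to 3.92) at 2 months. The lambda gene Iglc2 had 0 against 45 UMIs at 1 week, and 14 UMIs from 1 cell against 26 at 2 months. Lambda constant genes are near-identical copies, so reads may be split between them. With each cell weighted equally the Iglc2 ratio at 2 months lay on the other side, at a log2 value of 0.09.

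Genes of recirculating B cells followed the same order, as did Ly6d, Ptprc and Bank1 of the B identity list. Ccr7, the receptor for the chemokines that draw cells into lymphoid tissue, stood at 26.0 CPM in precursor-like and 561 in mature-like cells at 1 week, and at 30.8 and 513 at 2 months. Fcmr, the receptor for the constant part of IgM, had 3 against 44 UMIs and 0 against 13. Tnfrsf13c, the receptor for the survival factor BAFF, stood at 67.5 against 326 CPM and at 55.5 against 349, and mature-like cells were 4.83 times (2.47 to 10.03) and 6.29 times (2.65 to 16.02) as high. Ly6d was 10.02 times (6.65 to 15.6) and 16.7 times (10.35 to 28.0) as high in mature-like cells. Ptprc, the gene of CD45, stood at 72.7 against 550 CPM and at 105 against 719. Bank1, an adaptor of the B cell receptor, had no UMI in precursor-like cells of either library and 27 and 21 in mature-like cells. Of the mature follicular list 8 of 9 genes with 20 UMIs were at least 2-fold lower in precursor-like cells at 1 week and 4 of 5 at 2 months, against 10.7% and 14.1% of all genes. Cxcr5, which guides B cells to follicles, was below that minimum, with 0 against 8 UMIs and 0 against 2. Scd1, a fatty acid desaturase gene and not a listed gene, was among the lowest by ratio, with 1 against 44 UMIs and 1 against 28.

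**Figure D4:**
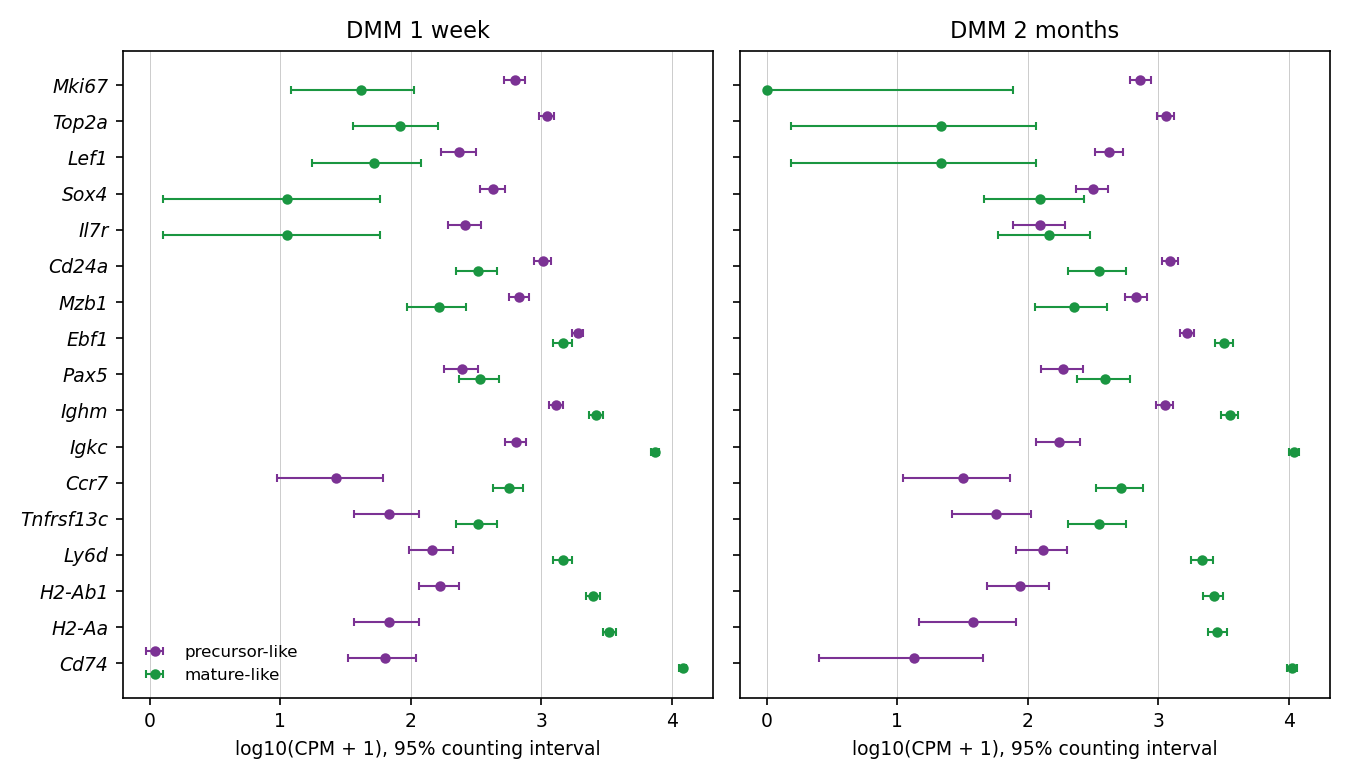
Points give the level of 17 genes in log10(CPM + 1) over precursor-like (purple) and mature-like (green) members at 1 week (left) and 2 months (right), with exact 95% counting intervals. Mki67, Top2a, Lef1, Sox4, Cd24a and Mzb1 stand higher in precursor-like cells, and Igkc, Ccr7, Ly6d and the class II genes in mature-like cells.

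Genes of B cell identity were split between the stages, more of them lower in precursor-like cells. Ebf1 ranged from 7 through a median of 17 to 47 UMIs per precursor-like cell at 1 week and from 0 through 4 to 12 per mature-like cell, which in CPM was 1896 (1706 to 2101) against 1458 (1229 to 1717). At 2 months the order was the other way, 1658 (1466 to 1869) against 3183 (2702 to 3725). Pax5 stood at 244 CPM (179 to 325) against 336 (232 to 472) at 1 week and at 185 (125 to 264) against 390 (235 to 609) at 2 months. Cd24a, a surface protein of immature B cells, was 3.14 times (2.15 to 4.71) as high in precursor-like cells at 1 week and 3.53 times (2.15 to 6.18) at 2 months. Mzb1, an endoplasmic reticulum helper of IgM assembly, was 4.14 times (2.46 to 7.46) and 2.98 times (1.60 to 6.14) as high. In the B identity list 2 of 21 genes were at least 2-fold higher in precursor-like cells and 9 lower at 1 week, and 2 of 18 higher and 12 lower at 2 months. Over all genes with 20 UMIs, 10.7% and 14.1% were lower, and the median log2 ratios of the list were -0.71 and -1.42 beside 0.26 and 0.47.

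Over all genes with at least 50 UMIs in both sums together, 190 of 831 (22.9%) were at least 2-fold higher and 80 (9.63%) at least 2-fold lower in precursor-like than in mature-like cells at 1 week. At 2 months these were 206 of 551 (37.4%) and 61 (11.1%). These counts include genes that grouped the cells, whose direction was set by the grouping. This comparison sorts cells by their own transcripts and describes them, and its minimum of 5 cells per stage was set after the group sizes were seen. Of 526 genes measured in both libraries, 121 were higher at 1 week and 188 at 2 months. Of these, 102 were higher in both. That is 84.3% of the 121, beside 188 of all 526 genes higher at 2 months. It is 54.3% of the 188, beside 121 of all 526 higher at 1 week. Among the same 526 genes, 36 were lower at 1 week and 58 at 2 months, and 30 in both, 83.3% and 51.7%. Taken over every gene in the comparison, the middle log2 ratio was 0.30 and 0.61. Scaled by the median ratio, 141 genes were higher and 118 lower at 1 week, and 120 and 111 at 2 months. Leaving out the genes that grouped the cells or chose the members, those with the highest mean ratio were the histone genes Hist1h1b, Hist1h4d, Hist1h2ap and Hist1h2ae and the cell-cycle genes Cenpf, Mki67, Ube2c, Cks1b, Birc5, Ccnb1, Top2a and Nusap1. Histone genes are near-identical copies, so their counts are uncertain. By the same ranking the lowest were Cd74, H2-Eb1, H2-Aa, Scd1, Igkc, Fcmr, H2-Ab1, S100a8, S100a9, Iglc2, Nfkbid and Ccr7. The log2 ratios of S100a8 and S100a9 at 1 week were -2.09 and -0.82 without the members that carried genes of other cell types, of which 1 mature-like cell had 1666 UMIs of the neutrophil set.

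The remaining lists gave few genes with 20 UMIs. Over all genes with 20 UMIs, 23.8% were at least 2-fold higher and 10.7% lower at 1 week, and 35.6% and 14.1% at 2 months. In the homing list Itgb1, an integrin chain, was higher in precursor-like cells at 1 week, and at 2 months Cxcr4, Ccr7 and S1pr1 were lower, of 5 genes. Cxcr4, the receptor for Cxcl12 that holds precursors in marrow, stood at 130 CPM (84.0 to 192) against 112 (56.0 to 201) at 1 week and 142 (89.9 to 213) against 452 (283 to 684) at 2 months. In the survival list Il7r was higher and Tnfrsf13c, Mcl1 and Bcl2l11 lower, of 4, at 1 week, and Tnfrsf13c was lower, of 3, at 2 months. The list of B-1, marginal zone and age-associated genes had 4 genes at 1 week, of which S100a6 was lower, and 1 at 2 months, which was within 2-fold. In the plasma cell list, Mzb1 was higher and Irf4 lower in both libraries, of 3 genes. Of the secreted signals, Ltb, a lymphotoxin chain, was lower at 1 week, of 2 genes, and the 1 gene at 2 months was within 2-fold. No gene of the germinal centre list reached 20 UMIs. The dissociation stress list, which reads handling of the tissue, had 4 of 16 genes higher and 4 lower at 1 week, beside 23.8% and 10.7% of all genes. Its median log2 ratio there was -0.51 beside 0.26 over all genes. At 2 months 2 of 9 were higher and 6 lower, against 14.1% of all genes lower, with a median of -1.34 beside 0.47, so this list stood lower in the precursor-like cells there. Junb was lower in both, at 364 against 948 CPM and at 167 against 2012. The part of this list in the other differences between stages was not tested. Of the interferon list Ifi27l2a, the 1 gene with 20 UMIs at 2 months, was lower there.

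Levels within a stage were set side by side between the operated libraries without calls, because no library but that at 1 week held 50 members. The interferon-induced gene Ifi27l2a had 69 UMIs in 12 of 19 precursor-like cells at 1 week, 358 CPM (279 to 454), and 1 UMI in 6 cells at 2 months, 6.17 CPM (0.156 to 34.4). In mature-like cells it stood at 601 CPM (458 to 776) and 513 (332 to 758), so the libraries stood apart in the precursor-like cells and not in the mature-like ones, a difference with no test. Mki67 in precursor-like cells was 1.16 times (0.891 to 1.504) as high at 2 months as at 1 week, and Lef1 1.79 times (1.21 to 2.68). Il7r was 0.475 times (0.268 to 0.812) and Cd93 0.379 times (0.197 to 0.689) as high. For Cd93, 23 of the 47 UMIs at 1 week came from a single cell with endothelial genes. The Cd93 ratio without that cell was not computed. In mature-like cells Ebf1 was 2.18 times (1.73 to 2.76), Cxcr4 4.03 times (1.87 to 9.20) and Junb 2.12 times (1.58 to 2.85) as high at 2 months as at 1 week.

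The unnamed members at 1 week were a mixture. Of these 30 cells, 17 had at least 10 UMIs of Cd74 and H2-Aa and 13 had fewer. The 17 cells had Igkc at 4815 CPM, Ms4a1 UMIs in 11 cells, Vpreb3 in 11 at 1093 CPM and no Rag1. Of them 2 had at least 5 UMIs of Mki67 and Top2a. The 13 others had Ighm in all 13 cells, Igkc in 11, Vpreb3 in 12 at 2191 CPM, Rag1 in 5, Ms4a1 in 3 and Ebf1 in all 13 at 2367 CPM. Il7r stood at 307 CPM in the 17 cells and 373 in the 13. They included 4 cells with at least 5 UMIs of Mki67 and Top2a. Their median depth was 2219 UMIs. The 3 unnamed cells at 2 months had no class II UMIs beyond 1 of Cd74, and 1 of them, with 27559 UMIs, carried endothelial genes, 19 of Ebf1 and no immunoglobulin.

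One cell in each operated library was rich in Jchain and Xbp1. These are not given a cell type name, since their set held only 2 markers. At 1 week the cell had 21675 UMIs, of which 26.4% were Igkc (25.8 to 27.0) and 4.56% the IgA heavy chain Igha (4.29 to 4.85). It held 447 UMIs of Jchain, 11 of Xbp1, a factor of the secretory machinery, 48 of Mzb1, no Ighm and 70 of Mki67, and it was 1 of the 2 members called as doublets. At 2 months the cell had 13607 UMIs, 36.9% of them Igkc (36.1 to 37.7) and 23.9% Igha (23.2 to 24.6), with 592 of Jchain, 14 of Xbp1, 8 of the plasma cell surface gene Sdc1, no Ighm and no Mki67. No member outside these cells had a UMI of IgA, IgG or IgE at 1 week, and 2 members at 2 months shared 3 UMIs. In the precursor-like, mature-like and unnamed groups together, Ighm gave 770 UMIs at 1 week and 402 at 2 months.

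Genes that attract or feed B cells were read in the cells with at least 2% collagen-set UMIs. In the order control, 1 week and 2 months, Cxcl12 stood at 2082, 598 and 1258 CPM. Cxcl13, which draws mature B cells through Cxcr5, was at 68.8, 0.257 and 37.5 CPM, and Ccl19, a ligand of Ccr7, at 186, 9.03 and 127. All 3 genes were lowest in the 1-week library. The cells were chosen by collagen-set genes, and the collagen gene Col1a1 stood at 2042, 9906 and 2726 CPM in all cells other than members. The limit took 2843, 5712 and 3592 cells, and whether it chose like cells in each library was not tested. Il7 was low throughout, at 2.06, 0.426 and 1.71 CPM. Tnfsf13b, the gene of BAFF, was at 2.04, 0.950 and 10.3 CPM. Flt3l was at 17.2, 6.70 and 13.5, Kitl, the stem cell factor, at 22.8, 17.3 and 12.4, and Tnfsf13 at 10.6, 8.28 and 7.19. Icam1 was at 219, 35.0 and 139 and Vcam1, an adhesion partner of lymphocytes, at 78.9, 119 and 116. Ccl21a was at 0.0279, 3.72 and 8.94. Intervals of these sums are narrow because they hold many cells, but each group is 1 library. With 3 points, no relation to the share of B lineage cells can be read.

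Cells with marrow markers were counted beside these shares. There were 8 control, 27 1-week and 53 2-month cells with granulocyte precursor genes, or 0.0988%, 0.219% and 0.542% of passing cells. Cells with the immature neutrophil genes numbered 29, 220 and 428, or 0.358%, 1.79% and 4.38%. Cells with over 10% haemoglobin UMIs numbered 4, 44 and 5. The granulocyte precursor and immature neutrophil shares were higher in both operated libraries than in the control, like that of the B lineage cells, but were highest at 2 months. The haemoglobin cells, like the B lineage cells, were most frequent at 1 week. The part of marrow cells in the share of B lineage and precursor-like cells was not tested.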

How the data were processed

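The authors deposited raw UMI counts for every gene in each barcode of 3 10x Genomics 3′ v3 libraries of 32285 genes. Per the file headers they were made with Cell Ranger 5.0.0 (control, 1 week) and 5.0.1 (2 months), while the submitters' processing notes name 6.0.1 and mm10. Barcodes were filtered and grouped by raw UMIs as described, CPM being UMIs over the total UMIs of a group of cells. Scrublet (scanpy 1.11.5), run separately on the libraries, gave doublet calls, which were not removed. Intervals were Clopper-Pearson for shares, Poisson for CPM and conditional binomial for ratios, and cover counting error only. Thinning drew 2000 UMIs per cell with a fixed seed and left out 8 shallower members at 1 week. The fold table was tested on simulated counts. Python 3.11.15, numpy 2.4.6, scipy 1.17.1 and pandas 2.3.3 were used.

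The members and gene lists were chosen with earlier results of these data known. Named genes were the 20 with the highest mean log2((CPM + 10)/(CPM + 10)) of members over other cells, and the 12 highest and 12 lowest between precursor-like and mature-like cells among genes with at least 50 UMIs, without mitochondrial, ribosomal, haemoglobin, predicted, sex-linked and receptor segment genes and the genes that chose the members, and between stages also without the genes that grouped the cells. Genes of the fixed lists could also be named, and 14 lists were used. Some genes of these lists are not reported here. The rule for naming genes between libraries asked for 50 members in each and gave none. That between stages asked for 20 cells of each, which no library met, and was lowered to 5 after the group sizes were seen.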

Additional observations from a re-analysis of the deposited data

Results flagged for a closer look

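At 1 week 53 cells with at least 4 UMIs of Cd79a and Cd79b were outside the B lineage group because of the collagen limit, against 0 in the control. They were noted as a signal in cells that the comparisons do not use.

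At 2 months 2 cells met the minima of 10 Jchain and 3 Xbp1 UMIs but not that of Cd79a and Cd79b, of which each had 3 UMIs, against 0 such cells in the control.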

How the results depend on the processing

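The 1-week share stayed above the 2-month share and both above the control share in all settings tried. With cells positive for Ptprc as the denominator the shares were 0.178%, 1.38% and 0.725% in the control, 1-week and 2-month libraries. Thinned to 2000 UMIs with 1 Cd79 UMI enough, the control share was 0.0927%, and with a collagen limit of 1% the 1-week share was 0.983%. The mature-like share at 1 week was 50% when members were thinned, 50% with a minimum of 2 UMIs and 21.25% with a minimum of 5 UMIs of the mature set.

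In the comparison of stages, a minimum of 100 UMIs left fewer genes tested. Of 346 genes at 1 week, 66 were higher and 36 lower in precursor-like cells, and of 256 at 2 months, 83 and 27. Thinning, with stages named at full depth and a minimum of 20 UMIs in place of 50, gave 111 higher and 95 lower of 599 genes at 1 week. At 2 months it gave 21 higher and 33 lower of 200 genes, against 206 and 61 of 551 without thinning. More genes were thus lower than higher there once cells were thinned. Median-ratio scaling gave 120 and 111 at 2 months, and weighting cells equally gave 39 lower at 2 months. With equal weights the log2 ratio of Iglc2 at 2 months was 0.089, where 1 precursor-like cell held all 14 UMIs. Of the other values, 100 shares, ratios and counts stayed within the counting interval of the value reported, or for counts within 1.5 times of it. That interval is wide for the ratios to the control. The log2 ratios of genes stayed within 1 of the value reported in 141 cases, and 19 gene ratios moved and kept their direction. The cause of the other shifts was not tested.

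The settings planned for genes and lists between libraries were not run, because no pair of libraries held 50 members each. Leaving out a replicate was not possible with 1 library per group. No paired analysis was possible because each group held 1 library. Depth limits the grouping by stage, since mature-like and unnamed cells had few UMIs.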
